A study of Sus scrofa with 3 samples.

Results

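The sarcomere, the contractile unit of striated muscle, is held together by a scaffold of very large proteins and by the Z-disc, the plate to which thin filaments of neighbouring units are anchored. Titin (TTN) spans from the Z-disc to the M-band and acts as a spring, nebulin (NEB) runs along the thin filament, and myosin binding protein C of the slow type (MYBPC1) binds the thick filament. Alpha-actinin-2 (ACTN2) crosslinks actin in the Z-disc, telethonin (TCAP) caps the end of titin there, and desmin (DES) forms the intermediate filaments that link Z-discs to each other and to the cell membrane. A tooth germ is made of dental epithelium and dental mesenchyme, neither of which builds sarcomeres. DES is also made by smooth muscle, and most of these genes, DES among them, also have roles in the heart.

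The 6 genes were followed on 3 Affymetrix Porcine Genome Arrays of Wuzhishan miniature pigs, 1 array each for E40, E50 and E60. All probe sets with one of these symbols were taken, from the platform's gene table or, where that table gives no symbol, from the gene tables of the paper. These were 11 of the 23999 probe sets analysed. TTN had 3 of them, ACTN2, DES and MYBPC1 had 2 each, and NEB and TCAP had 1 each. Probe sets of a gene are numbered by their mean log2 signal over the arrays, from the brightest. The dimmest TTN probe set and the brightest of MYBPC1 owed their names to the paper's tables alone. The NEB probe set carries a locus identifier in place of a gene name in those tables.

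Each array was hybridised with RNA from germs of the last deciduous molar in the mandible, dissected with the dental lamina and pooled within 1 litter. The E40 germs were in the cap stage without a secondary dental lamina, and the E50 germs were in the bell stage, in which that lamina starts. The E60 germs were in a stage that the labels call secretory and the methods late bell. No group was treated or carried an altered gene. Every stage was 1 pool on 1 array, which leaves replicate error unmeasured, so differences are between single arrays and carry no p-value.

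The values are MAS 5.0 signals, in arbitrary units of brightness, and levels of different probe sets are not compared. Where 3 signals are given without stages, they are in the order E40, E50, E60. The arrays had medians of 163.5, 125.0 and 132.0. Signals dimmer than an array's 25th percentile (the floor: 29.3, 17.2 and 21.8) were set to it before folds were taken. A fold with 1 raised signal is written "at least", and none is given where both were raised or where a raised signal passed the measured one. The limit for a call was a fold over 2, in either direction. Of 8 named tooth germ markers, those of early germs were bright on every array, such as BMP4 (2328.6, 3160.1 and 3893.1). The enamel matrix gene AMBN, which ameloblasts express, stood at 59.8, 2675.2 and 29942.0.

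The scaffold and Z-disc genes were bright on E40 and dim on both later arrays. On E40, 9 of the 11 probe sets lay above the median of the array, whereas on E50 and on E60 none did. At or above the floor were 10 probe sets on E40, 7 on E50 and 4 on E60. Their signals ran from 5.7 to 3494.0 on E40 (median 886.8), from 1.1 to 111.4 on E50 (median 19.0) and from 2.8 to 93.4 on E60 (median 11.3). The E40 signals of the second DES and the third TTN probe set lie within the ranges of the later arrays, and the other 9 lie above them.

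**Figure D1:**
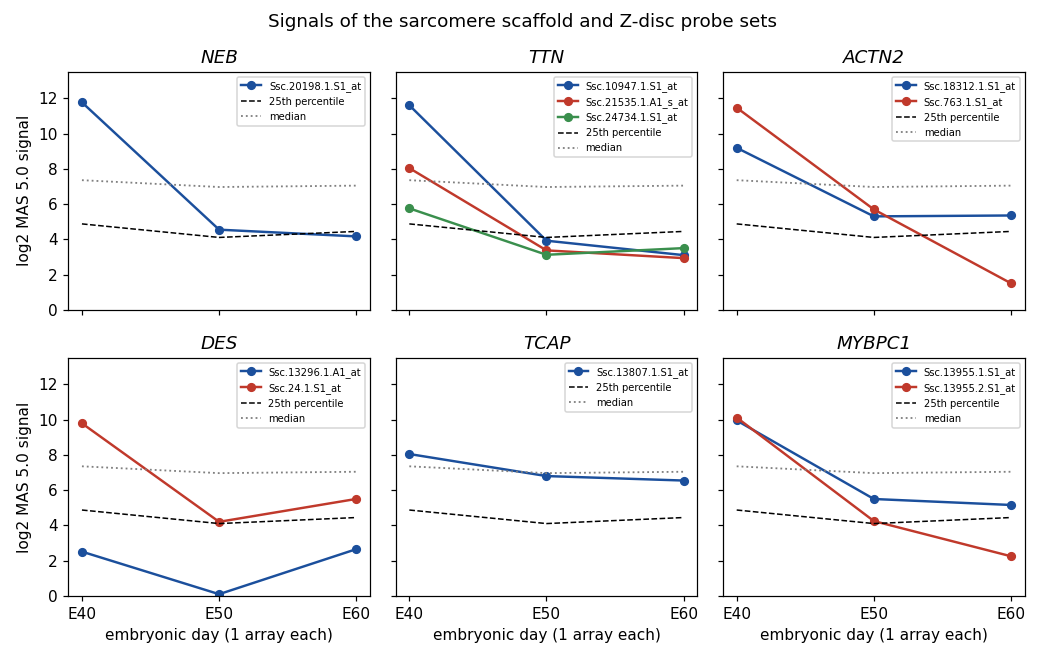
Log2 MAS 5.0 signal (vertical axis) of each probe set at each stage (horizontal axis, single arrays), in 1 panel per gene; the dashed line is the 25th percentile and the dotted line the median of each array. NEB stands at 3494.0 on E40 and at 23.3 and 17.9 later, while TCAP stands at 265.1, 111.4 and 93.4.

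On E50 versus E40, 10 of the 11 probe sets were lower by over 2-fold and none was higher, beside 15.0% of all tested probe sets lower and 2.49% higher. That background depends on the scaling: 2862 probe sets were lower and 477 higher as deposited, 1808 and 1455 with equal array medians, and 1636 and 1209 after quantile normalization. The remaining one, of DES, was under the floor on both arrays. The 3 TTN probe sets were above the floor on E40 only, so they could be scored only as lower or as within the limit. All of the 7 probe sets measured on both arrays were lower, where 11.7% of such probe sets were lower and 2.42% higher. By the brightest probe set of each gene, the median log2 fold of the 6 genes was -5.02, against 0.03 over all named genes. In the bulk RNA of a pool, fewer cells of a type and less RNA per cell cannot be told apart.

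NEB had signals of 3494.0, 23.3 and 17.9. It was thus high on E40 alone, at the 96.5th percentile of that array, and stood at the 29.1st on E50 and the 22.3rd on E60. Its fall on E50 versus E40 was 149.6-fold, the third largest fall among the 16866 probe sets measured on both arrays. On E60 it was at least 160.2-fold lower than on E40.

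TTN had signals of 3118.4, 15.1 and 8.6 by its brightest probe set. The other 2 stood at 263.1, 10.3 and 7.6 and at 54.0, 8.7 and 11.3. By the suffix of its name, the second probe set holds probes shared with other transcripts. All 3 probe sets were above the floor on E40 and under it on both later arrays, so their E50 and E60 signals have no order. The falls on E50 versus E40 were at least 181-fold, 15.3-fold and 3.13-fold, and those on E60 versus E40 at least 143-fold, 12.1-fold and 2.475-fold. These bounds follow from how bright each probe set was on E40, and they do not show that the probe sets fell by different factors. The smallest bound fell under 2-fold on E50 versus E40 with a common floor (at least 1.85-fold) and after quantile normalization (at least 1.89-fold). On E60 versus E40 it did so with a common floor (at least 1.85-fold), quantile normalization (at least 1.89-fold) and equal medians (at least 1.998-fold). The bound of the second probe set did so on E60 versus E40 with the floor at the 50th percentile (at least 1.993-fold). The calls were lost there, but a bound under 2-fold does not show a change within the limit.

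MYBPC1 was read by a pair of probe sets. The first stood at 991.4, 45.2 and 35.7, and the second at 1111.8, 19.0 and 4.8. Both were high on E40 alone. The folds on E50 versus E40 were 21.9-fold and 58.6-fold lower, a difference of 1.42 on the log2 scale between the 2 readings of the gene. On E60 versus E40 they were 27.7-fold and at least 51.0-fold lower.

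ACTN2 also had a pair of probe sets, and both were brightest on E40. The first, brightest by mean log2 signal, stood at 584.2, 39.4 and 40.8, and the second at 2831.0, 51.7 and 2.8. The folds on E50 versus E40 were 14.8-fold lower for the first and 54.7-fold for the second, 1.88 apart on the log2 scale. On E60 versus E40 the folds were 14.3-fold and at least 129.8-fold lower. Both probe sets were lower on E50 than on E40. The first was within the limit between E60 and E50 (1.035-fold higher, and 1.14-fold lower after quantile normalization) and the second was at least 2.37-fold lower on E60 than on E50, a call that was lost under the common floor (at least 1.77-fold).

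To judge these gaps, the 2 brightest measured probe sets of each of 1642 other genes were compared in the same way. Their log2 folds on E50 versus E40 differed by 0.34 in the median gene, and by 1.53 at the 95th percentile. The gap of ACTN2 was above that percentile and the gap of MYBPC1 below it. The other genes were not matched to these 2 for brightness or size of fold. The comparison thus cannot show whether either gap is unusual for a fall of this size. The paired probe sets of both genes had the same direction against E40 on each later array.

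DES had signals of 886.8, 18.4 and 45.3 by its brightest probe set. E50 was 48.1-fold and E60 19.6-fold below E40. With a common floor the first of these was 30.3-fold, since the E50 signal was close to the floor. The other DES probe set stood at 5.7, 1.1 and 6.3, under the floor on every array, and has no fold. One probe set therefore carries all that was measured of this gene.

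TCAP stood apart by the size of its change. Its only probe set had signals of 265.1, 111.4 and 93.4, which were at the 58.1st, 48.5th and 45.1st percentiles of their arrays. E50 was 2.38-fold and E60 2.84-fold below E40. The first call was lost with equal array medians (1.82-fold) or with the arrays quantile normalized (1.88-fold), and the second was kept (2.29-fold and 2.43-fold). Among all probe sets measured on both arrays, its fall on E50 ranked 1425th of 16866, while those of the ACTN2, DES and MYBPC1 probe sets ranked between 11th and 60th.

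**Figure D2:**
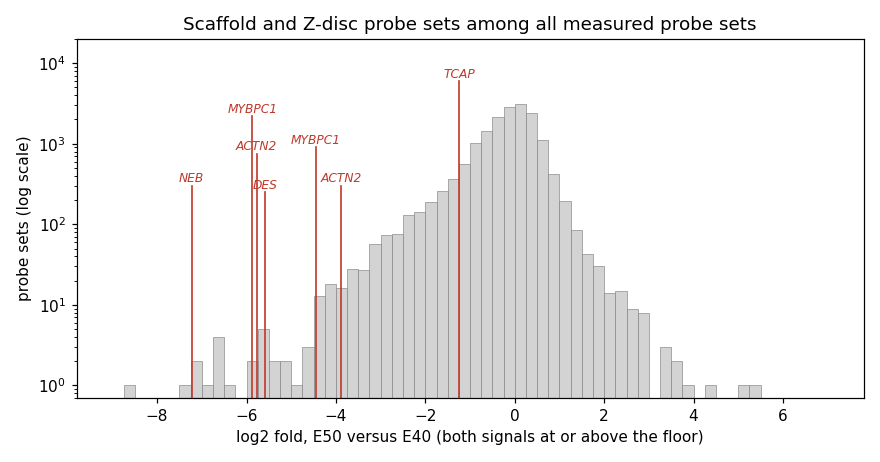
Number of probe sets (vertical axis, log scale) by log2 fold on E50 versus E40 (horizontal axis), for the 16866 probe sets at or above the floor on both arrays. Red lines mark the 7 of them that belong to the scaffold and Z-disc genes: NEB lies at -7.23 and TCAP at -1.25, and the heights of the lines carry no value.

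On E60 versus E50 few of the probe sets could be measured on both arrays. Of the 11 probe sets, 1 was higher and 1 lower by over 2-fold, beside 6.24% higher and 1.84% lower among all probe sets tested (5.09% and 1.5% among those measured on both arrays). Of all those tested, 1184 were higher and 349 lower as deposited, against 745 higher and 508 lower after quantile normalization. Another 4 were within 2-fold (NEB among them by a bound alone), 1 of MYBPC1 had no fold because its raised signal passed the measured one, and 4 were under the floor on both arrays. The 5 genes with a fold lay between -0.34 and 1.30 on the log2 scale, 1 of them (NEB) by a bound. The higher one was DES, at 45.3 on E60 against 18.4 on E50 (2.46-fold). Its E50 signal was close to the floor of 17.2. The rise was 1.55-fold under a common floor and 1.996-fold after quantile normalization, so the call was lost in both. The lower one was the second ACTN2 probe set. TCAP was 1.19-fold lower and MYBPC1 1.265-fold lower by its first probe set, both within the limit. NEB was at least 1.07-fold lower, a bound that does not show whether it was within the limit.

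On E60 versus E40 the same 10 probe sets as on E50 versus E40 were lower and none was higher, where 12.3% of all tested probe sets were lower and 4.4% higher. Here the balance of the background turned with the scaling, at 2343 lower and 840 higher as deposited against 1467 lower and 1628 higher with equal array medians. These comparisons share the E40 array. The median log2 fold of the 6 genes was -4.54, against -0.02 over all named genes. Only 4 of the 10 were measured on both arrays, of TCAP, DES, MYBPC1 and ACTN2, with folds between 2.84 and 27.7. Among all probe sets so measured, 10.4% were lower and 4.16% higher.

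**Figure D3:**
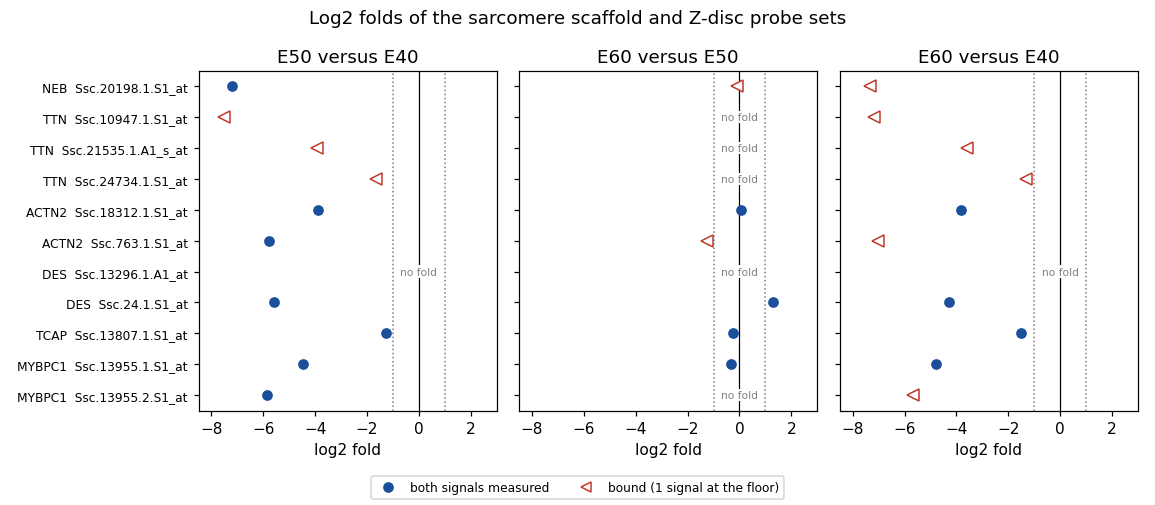
Log2 fold (horizontal axis) of each probe set (rows) on E50 versus E40, E60 versus E50 and E60 versus E40; filled circles have both signals at or above the floor, open triangles are bounds and the dotted lines mark 2-fold. Against E40, 10 of the 11 lie below -1 at each later stage, and on E60 versus E50 1 does.

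Other genes of the same structures were divided between a lower group and a group that was not called. Of 57 listed partner genes, 31 were named in the tables used. On E50 versus E40, 18 of the 30 with a fold were lower by over 2-fold, none higher and 12 not called. Over all named genes, 11.3% were lower and 2.82% higher. TMOD4, chosen after its values were seen, is among the 12 by a bound alone (at least 1.86-fold lower). That bound does not show whether it was level. Of the 18, 12 were under the floor on E50, and among the 17 measured on both arrays 6 were lower. The median log2 fold was -1.64. On E60 versus E40, 16 of 30 were lower and none higher, beside 9.72% and 4.76% of all named genes, and the median was -1.13. Of those not called there, TMOD4, CMYA5 and XIRP1 had bounds alone, the last 2 also chosen after their values were seen. On E60 versus E50, 1 of 18 was higher and none lower, beside 5.11% and 1.87%.

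Among the Z-disc partners, 8 of the 12 with a fold were lower on E50 than on E40, beside 11.3% of all named genes. Of the 13 named, 1 was under the floor on E40 and 7 on E50. A partner above it on E40 only could not be scored as higher. MYOZ1, a calcineurin-binding protein of the Z-disc, stood at 279.7, 58.0 and 44.8 (4.82-fold lower on E50). MYOT, the myotilin gene, stood at 1507.9, 7.2 and 27.0, and XIRP2, an actin-binding repeat protein, at 373.3, 19.6 and 18.3. Both were chosen after their values were seen. The brightest of this list did not pass the limit: PDLIM5, a PDZ and LIM domain protein, stood at 1145.5, 2198.5 and 1679.7, and CRYAB, a small heat shock protein, at 1249.0, 1167.1 and 644.4.

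In the A-band and M-band list, 5 of 7 genes were lower on E50 than on E40 and the same number on E60. The shares of all named genes were 11.3% and 9.72%. None of the 7 was under the floor on E40, but 3 were on E50 and 4 on E60. Those could not be scored as higher. MYOM1, the gene of the M-band protein myomesin, stood at 499.1, 29.7 and 21.7 (16.8-fold lower on E50), and MYOM2 at 427.9, 83.1 and 102.9 (5.15-fold). MYBPH, a relative of MYBPC1, stood at 921.6, 16.0 and 4.5 and was at least 53.5-fold lower on E50. The LIM domain genes FHL1 and FHL2 were bright throughout, FHL1 at 2724.3, 3751.6 and 2992.7 and FHL2 at 2372.3, 2832.2 and 2540.0.

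At the thin filament ends and in sarcomere assembly, 5 of 9 genes were lower on both later arrays than on E40. Of all named genes, 11.3% were lower on E50 and 9.72% on E60. All 9 were above the floor on E40, but 4 were under it on E50 and 4 on E60. Those could not be scored as higher. TMOD1, which caps the pointed end, stood at 493.1, 130.1 and 181.8 (3.79-fold lower on E50), and UNC45B, a chaperone of muscle myosin, at 286.8, 14.9 and 30.9 (at least 16.6-fold). The capping proteins of the barbed end, which sit in the Z-disc but are made by most cells, were level: CAPZA2 at 3011.2, 4174.4 and 4553.8 and CAPZB at 639.8, 901.1 and 734.3. The chaperone partner BAG3 was level as well, at 1229.1, 1295.2 and 1199.2. Of the partners of desmin, SYNM, which forms filaments with it, stood at 241.8, 137.2 and 112.0 (1.76-fold lower on E50 and 2.16-fold on E60). DMD, the dystrophin gene, was the other one named and was within the limit at 67.4, 54.5 and 59.3.

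Relatives of the 6 genes that are not restricted to striated muscle gave a direct contrast. ACTN1, the non-muscle relative of ACTN2, stood at 4667.0, 5497.1 and 4707.5, and VIM, the intermediate filament gene of mesenchyme, at 19633.8, 18932.9 and 20460.3. FLNA, a ubiquitous actin crosslinker, stood at 2314.3, 2796.8 and 2467.1. NEBL, a nebulin relative that the heart also uses, was lower on E50 than on E40 (3.275-fold), and no such gene was higher. The median log2 fold over the 7 named was -0.05.

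**Figure D4:**
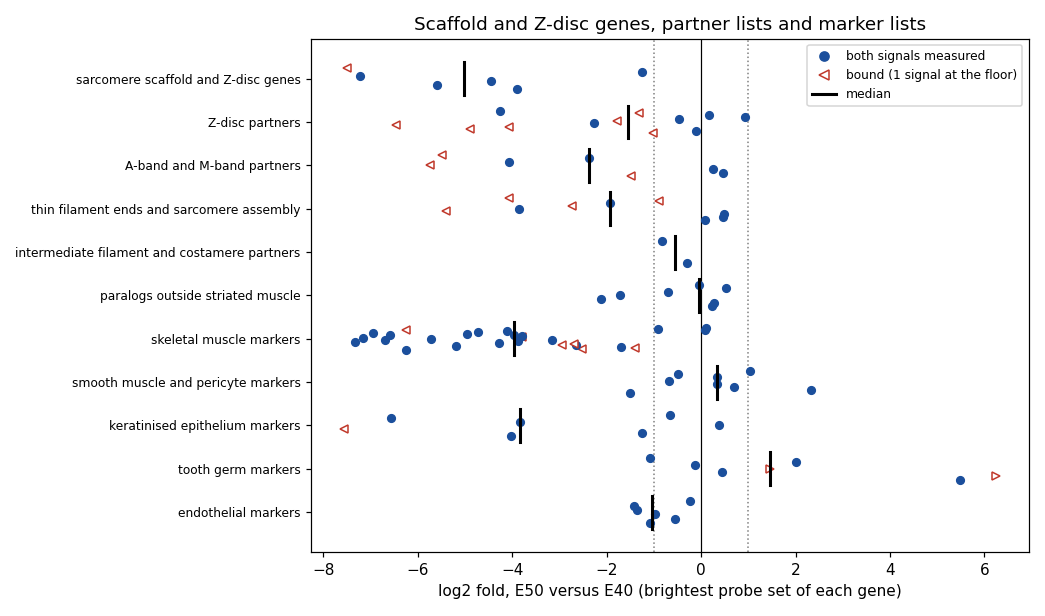
Log2 fold on E50 versus E40 (horizontal axis) of each gene by its brightest probe set, in the lists named on the vertical axis; filled circles are measured on both arrays, open triangles are bounds and black bars are medians. The median is -5.02 for the 6 scaffold and Z-disc genes, -3.97 for the skeletal muscle markers and 0.34 for the smooth muscle markers.

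Markers of skeletal muscle moved with the scaffold genes. Of 28 named markers outside the 6 genes, 27 had a fold on E50 versus E40, of which 24 were lower. None was higher, and the median log2 fold was -3.97. Of the 28, 1 was under the floor on E40, 7 on E50 and 10 on E60. Against E40, a marker under the floor on the later array alone could be scored only as lower or as within the limit. Of all named genes, 11.3% were lower and 2.82% higher. The 3 within the limit were the tropomyosins TPM1, TPM2 and TPM3, genes that many cell types use (TPM1 stood at 12215.2, 12970.8 and 13160.9). The summed signal of all 28 was 83391.6, 24040.8 and 26382.0, and without the tropomyosins 61106.9, 1560.6 and 4265.8. The rise of both sums from E50 to E60 rests on MYL1, which stood at 481.2 on E50 and at 3266.3 on E60. Later changes were mixed. On E60 versus E50, 3 of 20 markers were lower and 2 higher, beside 1.87% and 5.11% of all named genes. On E60 versus E40, 23 of 27 were lower and 1 higher, beside 9.72% and 4.76%. The higher ones were MYL1, a fast myosin light chain (7116.4, 481.2 and 3266.3), on E60 versus E50 alone and CHRNA1, a subunit of the muscle acetylcholine receptor (93.0, 28.5 and 228.4), in both pairs. No marker was at 0. MYH2 was under the floor on every array, and MYOD1 and MYF5, which set the myogenic fate, were above it on E40 only (237.9 and 133.2), the last 3 genes having been chosen after their values were seen. The part of these markers in the result was not tested.

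Most markers of keratinised epithelium also moved with them. Of 8 named, 5 of the 7 with a fold were lower on E50 than on E40 and none was higher, beside 11.3% and 2.82% of all named genes. The 2 within the limit were KRT10, which rose over the stages (1320.7, 1713.5 and 2275.5), and TGM1 (1.57-fold lower). The summed signal of the 8 was 16533.2, 3915.7 and 4317.3. None was at 0, and KRT1 was under the floor on every array. On E50, 2 of the 8 were under it, and a marker above it on E40 only could not be scored as higher. Their part in the result was not tested either. Markers of smooth muscle and pericytes, other cells that can make desmin, were mixed. Their sum was 9493.9, 9615.6 and 10747.1, with 1 of 8 lower (ACTA2, 2673.8, 944.4 and 1347.5) and 2 higher on E50 than on E40. Since 11.3% of all named genes were lower and 2.82% higher, 1 lower gene of 8 is near the background. The 2 higher of 8, ACTG2 and TAGLN, are a larger share than that background. No marker of this list was at 0, and MYLK was under the floor throughout. The sum held changes in both directions, with ACTA2 lower and TAGLN higher (1563.5, 3215.4 and 2716.9) on E50, and the part of these markers in the fall of DES was not tested.

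The genes nearest in pattern were sought among 8306 probe sets with 1 symbol that were above the floor on E40. Likeness was the distance between the pair of log2 differences (E50 and E60, each minus E40) and the median of these over the 6 genes, which was -5.02 and -4.54. Nearest was CKM, the muscle creatine kinase, at 946.9, 26.0 and 36.0 (distance 0.24), then TNNC2, the fast troponin C, at 3493.4, 112.1 and 116.6 (0.37). C1QTNF3, a secreted protein with a C1q domain (937.0, 23.7 and 32.9), and STMN2, a microtubule regulator of neurons (459.6, 20.0 and 7.8), came next. RYR1, the calcium release channel of skeletal muscle, KLHL41 and TRIM55, both of the sarcomere, and an ACTG1 probe set made up the rest of the 8, with distances up to 0.75. ACTG1 is the cytoplasmic gamma actin, and the suffix of that probe set marks probes shared with other transcripts. The later signals of RYR1, KLHL41 and TRIM55 and the E60 signal of STMN2 were under the floor, so their distances rest on bounds and their order is not settled. Over 3 arrays a pattern has only 2 differences, so likeness here is a description.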

How the data were processed

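Each stage gave 1 array. The deposited log2 values are MAS 5.0 signals that the authors had scaled array by array in GeneSpring, and they were used without further normalization. The mean signal with 2% trimmed at each end was 500.1 on E40, E50 and E60. The 124 array controls among the 24123 probe sets were not analysed. The platform table gives 1 symbol for 10069 of the 23999 analysed and several for 198, and 511 more were named from the paper's gene tables. No column of samples outside the series was present. The detection calls of the study were not used here, and a floor at the 25th percentile of each array took their place. No sequence is printed, and no coordinates, since the build behind the probe sets is not given in the sources used here.

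Folds are differences of log2 values, called past 2-fold. A gene of a list is represented by the probe set that was brightest by mean log2 signal. Lists were described by counts and medians beside those of all probe sets or named genes tested. The fold code was tested on simulated data. All probe sets of the 6 genes are named, and of other lists up to 5 of the brightest, together with genes that went against their list and the 8 genes nearest in pattern. One result of a listed gene is not reported here. The genes and lists were chosen with earlier results of these data known. The work used Python 3.11.15, numpy 2.4.6 and pandas 2.3.3. The alternatives were other floors, scalings, a 3-fold threshold, other symbol sources and means over probe sets, and a floor at a signal of 100, added after the data had been seen.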

Additional observations from a re-analysis of the deposited data

How the results depend on the processing

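A choice was taken to keep a value within 1.5-fold of it. Of the 74 alternative values of the counts and medians, 56 were within that limit and 18 were not. Among the alternative folds of single probe sets of the 6 genes, 93 were within it and 47 were not. The median log2 fold of the 6 genes on E50 versus E40 was -2.91 with the floor at the 50th percentile, -3.23 with a floor at a signal of 100 (added after the data had been seen) and -5.73 with symbols from the platform table only, and on E60 versus E40 it was -2.83 and -3.23 under the first and second of these. A higher floor shortens each fold by construction, and the platform table alone leaves MYBPC1 with its other probe set. The count of called probe sets of the 6 genes on E60 versus E50, 2 as reported, was 4 without a floor, 1 after quantile normalization, and 0 with the floor at the 50th percentile, a common floor, a floor of 100 or a 3-fold threshold. The count of partner genes in that pair, 1 as reported (NRAP, chosen after its values were seen), was 9 without a floor (4 lower and 5 higher) and 0 with the floor at the 50th percentile, a common floor, equal medians, quantile normalization, a 3-fold threshold or a floor of 100. On E50 versus E40 and E60 versus E40, between 8 and 11 probe sets of the 6 genes were lower under each alternative and none was higher. Equal medians shifted the median probe set on E50 versus E40 to 0.27, against -0.11 as deposited, and gave 16 lower and 1 higher partner genes there. No median on E60 versus E50 could be had with the floor at the 50th percentile, since no gene of the 6 was above it. No alternative reversed a called fold. No paired analysis was possible because each stage has 1 array. The floor limits what the dim E50 and E60 signals can show, and the single array per stage leaves the error of every fold unknown.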

Other observations

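Of 7 named markers of the endothelium, 6 had a fold on E50 versus E40, of which 3 were past the 2-fold limit, all lower, and the median log2 fold was -1.04. Among all named genes 11.3% were lower and 2.82% higher. In the order E40, E50, E60, PECAM1 had signals of 1047.6, 529.3 and 902.5, CDH5 had 1070.5, 502.4 and 788.1, and TEK had 210.0, 81.7 and 226.6. On E60 versus E50, 1 of 6 was higher and none lower, with a median of 0.51, where 5.11% of all named genes were higher and 1.87% lower. Within the smooth muscle and pericyte list, ACTG2, the enteric smooth muscle actin, had signals of 354.5, 1785.5 and 1576.1 (5.04-fold higher on E50 versus E40), and TAGLN, a calponin-related actin-binding protein, had 1563.5, 3215.4 and 2716.9 (2.06-fold).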
